A study of Mus musculus with 9 samples.

Results

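The genes described here are the SLAM family receptors and the small SH2 adaptor proteins that carry their signals, followed across 3 cell types of the mouse immune system. They were chosen by name, as a list of 9 genes, namely Slamf1, Slamf6, Slamf7, Cd48, Cd84, Ly9, Sh2d1a, Sh2d1b1 and Sh2d2a. A value was available for 8 of the 9, of 18193 genes in all, through probe sets annotated to a single gene symbol. Sh2d1b1, which encodes the adaptor EAT-2, had 0 such probe sets, because its only probe set also carries the symbol of a neighbouring gene copy, and it is not analysed here. All 8 measured genes passed the filter on low values described below. Slamf1 had 3 such probe sets, Slamf6 had 3 and Cd84 had 2, and the other 5 genes had 1 each.

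The cells were interferon-producing killer dendritic cells (IKDC), natural killer cells (NK) and conventional dendritic cells (CDC), each sorted fresh. The BALB/c donors were naive, 6 to 8 weeks old, and carried no treatment or genetic change according to the labels. Spleen gave 2 arrays per cell type and lymph node (LN) gave 1, so that 9 Affymetrix arrays were measured. The labels do not give the markers used for sorting or say how many animals were pooled per array. All levels below are log2 normalized intensities of a gene's brightest probe set and all differences are on the same log2 scale, so levels of different genes are not set against each other.

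SLAM family receptors are surface proteins of blood cells. Most of them bind a copy of themselves on a neighbouring cell, while CD48 is the ligand of 2B4, the receptor encoded by Cd244a. In most of them, though not in CD48, the cytoplasmic tails carry tyrosine motifs that recruit SAP, the product of Sh2d1a, or EAT-2. SAP brings in the kinase Fyn, and without SAP the same tails can recruit inhibitory phosphatases. In NK cells these receptors tune killing of other blood cells, and loss of SAP in humans causes X-linked lymphoproliferative disease. Sh2d2a encodes TSAd, a related SH2 adaptor of activated T cells and NK cells that binds the kinase Lck and is not known as a receptor partner of the SAP kind.

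Of the 8 measured genes, 6 lie in a single cluster on chromosome 1. In the RefSeq annotation of GRCm38.p6 the order along the chromosome is Cd244a, Ly9, Slamf7, Cd48, Tma7-ps, Slamf1, Cd84 and Slamf6. Sh2d1a lies on the X chromosome and Sh2d2a on chromosome 3. The promoters of Cd84, Cd48 and Slamf7 are printed from RefSeq (GRCm38.p6), 250 bases before to 50 after the gene start, because these members of the cluster had different profiles over the cell types. Capitals mark matches to the RUNX motif TGTGGT.
Cd84, chr1:171839447-171839746, plus strand: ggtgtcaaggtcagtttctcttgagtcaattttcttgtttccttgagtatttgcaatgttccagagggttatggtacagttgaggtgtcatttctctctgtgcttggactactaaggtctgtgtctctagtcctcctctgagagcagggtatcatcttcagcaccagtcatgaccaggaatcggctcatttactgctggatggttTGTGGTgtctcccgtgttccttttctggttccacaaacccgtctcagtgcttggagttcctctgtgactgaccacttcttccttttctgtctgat
Cd48, chr1:171681742-171682041, plus strand: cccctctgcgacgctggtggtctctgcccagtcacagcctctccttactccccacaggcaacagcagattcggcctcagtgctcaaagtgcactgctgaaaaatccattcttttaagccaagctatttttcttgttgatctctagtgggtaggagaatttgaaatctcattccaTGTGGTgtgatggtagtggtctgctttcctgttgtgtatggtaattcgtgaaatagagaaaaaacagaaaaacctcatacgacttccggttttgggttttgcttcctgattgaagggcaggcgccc
Slamf7, chr1:171648950-171649249, minus strand: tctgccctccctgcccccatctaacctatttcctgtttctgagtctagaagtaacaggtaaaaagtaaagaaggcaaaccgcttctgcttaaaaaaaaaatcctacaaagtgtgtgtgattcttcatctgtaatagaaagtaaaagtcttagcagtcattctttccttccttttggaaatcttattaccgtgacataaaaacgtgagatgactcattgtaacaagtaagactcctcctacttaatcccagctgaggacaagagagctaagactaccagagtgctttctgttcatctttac
RefSeq promoters were at hand for 6 of the 9 listed genes. Of 4 motifs searched on both strands, the RUNX motif was found in Cd84 at position -45 and in Cd48 at position -76, both on the strand of the gene, and was not found in Slamf7. Among the promoters not printed, Sh2d1b1 had a RUNX match at position -54 on the opposite strand. Slamf6 and Slamf1 had no match to any of the 4 motifs. The RUNX motif occurs in 16.8% of the 32851 mouse promoters of this length. The other motifs were an ETS motif, AGGAAGT, in 9.35% of promoters, the IRF motif in 3.44%, and a T-box motif, AGGTGTGA, in 1.28%. None of these was in the 3 printed windows, and no match overlapped another. The sequences are those of C57BL/6J, whereas the mice were BALB/c.

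The NK and conventional DC marker lists set CDC apart from both other cell types, while IKDC and NK overlapped in both lists. Of 7 measured NK markers, such as Ncr1 and Gzmb, 7 were above the filter level on every IKDC and NK array, and their summed intensity was 20469 to 27280 in IKDC, 25963 to 35901 in NK and 681 to 1592 in CDC. The 8 conventional DC markers summed to 5094 to 9705 in IKDC, 613 to 5529 in NK and 20887 to 27368 in CDC. The upper end in NK was spleen NK array 1, where Itgax read 11.32 and H2-Aa 10.89, against 7.27 and 6.62 on spleen NK array 2. Cd74 was also higher there, at 9.68 against 7.18, and Batf3, Flt3 and Cd86 by less. Zbtb46 and Xcr1 were lower there, at 4.86 against 5.24 and 4.765 against 5.03. The median intensity was lowest on spleen IKDC array 2, 23.4 against 28.5 to 41.3 on the others, as was its BioB control spike, 124.1 against 210.0 to 505.3. Xist, transcribed from the inactive X chromosome of females, read 6.02 to 6.36 on spleen arrays 1 and 11.43 to 12.48 on all others, and the Y-linked Eif2s3y read 8.84 to 9.40 on spleen arrays 1 and 2.76 to 4.28 on all others. In each of the 3 cell types, 0 of the 8 genes differed by over 2-fold between the 2 spleen arrays, where 2148 genes did in IKDC, 902 in NK and 898 in CDC. The widest gap among the 8 was 0.96, for Sh2d1a in IKDC.

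**Figure D1:**
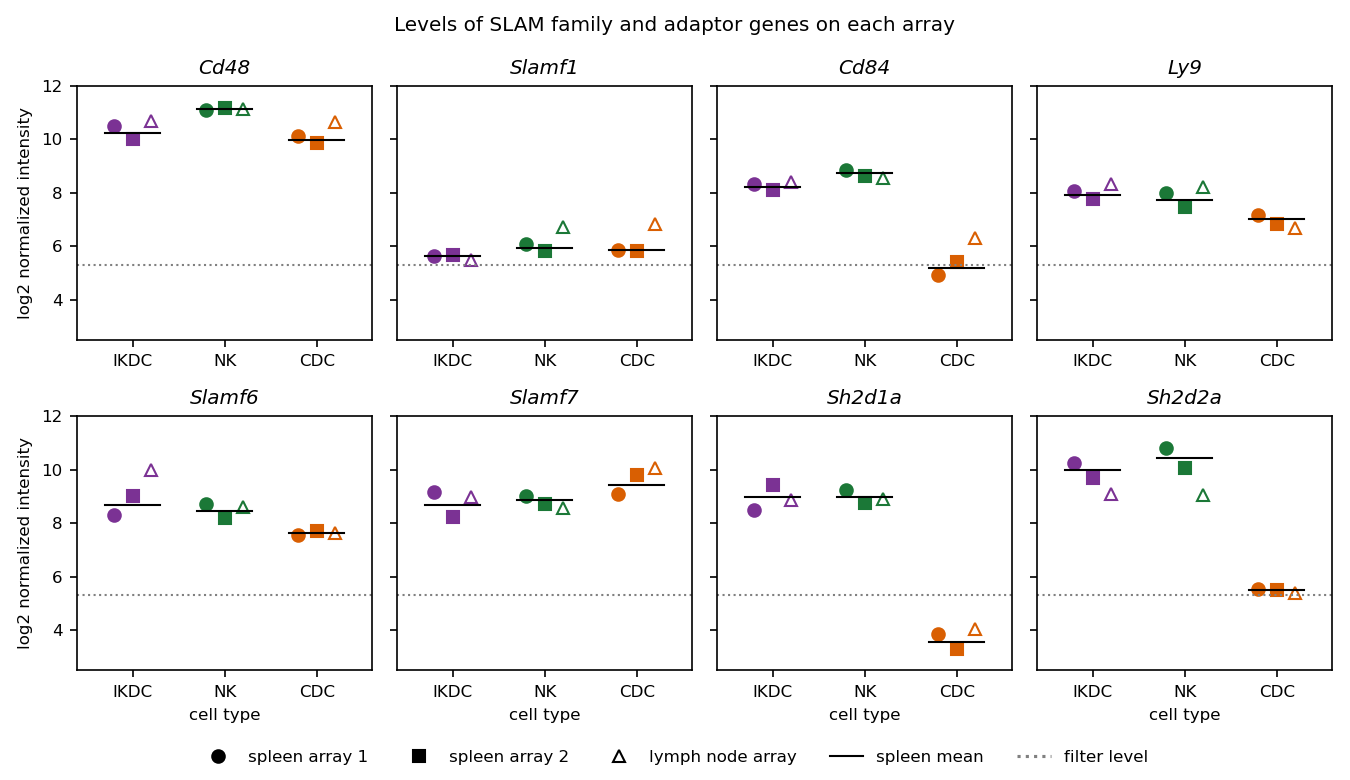
Log2 normalized intensity (y axis) of 8 genes in IKDC, NK and CDC (x axis), with filled points for the 2 spleen arrays, open triangles for the LN array, a bar for the spleen mean and a dotted line at the filter level of 5.31. Sh2d1a, Sh2d2a, Cd84, Ly9 and Slamf6 are higher on every IKDC and NK array than on any CDC array, and Cd48, Slamf1 and Slamf7 are not.

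The adaptor genes showed the widest contrast between the cell types. Sh2d1a, the gene for SAP, read 8.48 and 9.45 in spleen IKDC and 8.88 in LN IKDC. It read 9.24 and 8.75 in spleen NK and 8.90 in LN NK, against 3.84 and 3.29 in spleen CDC and 4.03 in LN CDC. All 6 IKDC and NK arrays were above all 3 CDC arrays, and every CDC array was below the filter level of 5.31, near background. Sh2d1a rose in spleen IKDC relative to spleen CDC by 5.40 ± 0.42 (SE, limma adjusted p = 0.00136), at least 12.6-fold when CDC is set to the filter level. In spleen NK it rose relative to spleen CDC by 5.43 ± 0.42 (adjusted p = 0.000876), at least 12.9-fold.

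Sh2d2a, the gene for TSAd, followed the same division. It read 10.27 and 9.68 in spleen IKDC and 9.09 in LN IKDC, and 10.82 and 10.06 in spleen NK and 9.06 in LN NK, against 5.52 and 5.49 in spleen CDC and 5.38 in LN CDC. The CDC arrays lay just above the filter level, far below all IKDC and NK arrays. The rise over spleen CDC was 4.47 ± 0.35 in spleen IKDC, a 22.2-fold difference (adjusted p = 0.00136), and 4.94 ± 0.35 in spleen NK, a 30.6-fold difference (adjusted p = 0.000732). Both adaptor genes are also active in T cells, and the T cell list was higher in IKDC and NK than in CDC in sum, though not gene by gene. Its 8 markers summed to 2004 to 2816 in IKDC, 1930 to 3521 in NK and 880 to 1365 in CDC, with 5 to 7, 5 to 8 and 3 to 4 of 8 above the filter level and 0 markers at an intensity of 0. Their part in the result was not tested. The list was not uniform. Cd3d read 7.57 to 8.07 in IKDC and 6.66 to 8.81 in NK, against 3.28 to 3.63 in CDC, and Cd3g read 7.58 to 9.10 in IKDC and 7.06 to 9.31 in NK, against 4.30 to 5.04 in CDC. Cd28 read 9.46 to 10.49 in IKDC and 9.4975 to 10.26 in NK, against 4.17 to 5.16 in CDC, and Lat read 8.47 to 8.90 in IKDC and 9.07 to 9.36 in NK, against 3.62 to 5.97 in CDC. On these 4 genes all IKDC and NK arrays were above all CDC arrays, as for Sh2d1a. Other markers went the opposite way. Cd8a was lower on all IKDC and NK arrays than on any CDC array. Cd4 was lower on all of them except LN IKDC, at 9.30 against 8.02 to 9.90 in CDC. Cd5 was lower on all of them except LN NK, at 7.38 against 6.61 to 7.30 in CDC. Cd3e overlapped, at 4.19 to 5.58 in IKDC, 5.04 to 8.15 in NK and 4.08 to 4.88 in CDC.

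Among the receptors, Cd84 was the gene whose rise relative to CDC passed the test in both killer cell types. CD84 is a receptor that binds itself and is found on many blood cells, platelets included. It read 8.31 and 8.12 in spleen IKDC and 8.41 in LN IKDC, and 8.84 and 8.61 in spleen NK and 8.57 in LN NK, against 4.94 and 5.43 in spleen CDC and 6.30 in LN CDC. Every IKDC array and every NK array was above every CDC array, and the CDC arrays of the spleen lay near the filter level. Against spleen CDC the rise was 3.03 ± 0.29 in spleen IKDC, at least 7.51-fold (adjusted p = 0.00216), and 3.54 ± 0.29 in spleen NK, at least 10.7-fold (adjusted p = 0.000993).

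The dimmer probe set of Cd84 gave a smaller contrast in spleen and passed the test in neither organ. It read 6.43 and 5.06 in spleen IKDC and 7.58 in LN IKDC, and 6.56 and 5.95 in spleen NK and 6.75 in LN NK, against 4.998 and 4.82 in spleen CDC and 4.78 in LN CDC. The signs were the same, and the differences from spleen CDC were 0.83 ± 0.52 in spleen IKDC and 1.35 ± 0.52 in spleen NK (adjusted p = 0.414 and 0.165). From LN CDC they were 2.80 ± 0.74 in LN IKDC and 1.97 ± 0.74 in LN NK (adjusted p = 0.11 and 0.208). Of the platelet and erythroid list, Pf4 was highest on spleen NK array 2, at 9.60, against 5.95 on spleen NK array 1. The 4 measured genes of that list summed to 196 to 274 in IKDC, 191 to 1163 in NK and 181 to 252 in CDC, and their part in the Cd84 level was not tested.

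Cd48, the ligand of 2B4 and CD2, was high in all cells and rose in NK. It read 11.10 and 11.17 in spleen NK and 11.12 in LN NK, against 10.12 and 9.87 in spleen CDC and 10.65 in LN CDC. The IKDC arrays, at 10.49 and 9.9995 in spleen and 10.69 in LN, were all below the NK arrays and overlapped the CDC arrays. Spleen NK exceeded spleen CDC by 1.14 ± 0.25, a 2.20-fold difference (adjusted p = 0.0316), and spleen IKDC exceeded spleen CDC by 0.25 ± 0.25 (adjusted p = 0.628). The call in NK was lost when any single spleen NK or spleen CDC array was left out, with an adjusted p of 0.106 to 0.203 and a difference of 1.01 to 1.26, and in LN the difference was 0.47 ± 0.36 (adjusted p = 0.539).

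Ly9 and Slamf6, which encode the self-binding receptors CD229 and Ly108, were above CDC on every IKDC and NK array without passing the test in either organ in the unblocked fit. Ly9 read 8.07 and 7.77 in spleen IKDC and 8.33 in LN IKDC, and 7.99 and 7.48 in spleen NK and 8.21 in LN NK, against 7.18 and 6.83 in spleen CDC and 6.69 in LN CDC. The difference from spleen CDC was 0.91 ± 0.31 in IKDC (adjusted p = 0.131) and 0.73 ± 0.31 in NK (adjusted p = 0.202). With the replicate number as a block the IKDC difference passed (adjusted p = 0.0415), and an additive model of organ and cell type called Ly9 in both (adjusted p = 0.0167 and 0.0269). No other alternative called it in spleen, so it passed in 2 of 16 for IKDC and in 1 of 16 for NK. In LN the differences from CDC were 1.64 ± 0.43 in IKDC (adjusted p = 0.111) and 1.52 ± 0.43 in NK (adjusted p = 0.111).

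Slamf6 read 8.31 and 9.01 in spleen IKDC and 9.99 in LN IKDC, and 8.70 and 8.20 in spleen NK and 8.60 in LN NK, against 7.55 and 7.73 in spleen CDC and 7.64 in LN CDC. LN IKDC was the highest array and the 3 CDC arrays were the lowest. The difference from CDC was 1.02 ± 0.34 in spleen IKDC (adjusted p = 0.124) and 2.35 ± 0.48 in LN IKDC (adjusted p = 0.0525), and 0.81 ± 0.34 in spleen NK (adjusted p = 0.193). The LN difference was called under 3 of 13 alternatives. It stayed at 2.35 whichever spleen array was left out, since just its borrowed standard error changed. That error was 0.39 without spleen IKDC array 1 and 0.53 without spleen CDC array 1. With the mean of probe sets the LN difference was 1.74 ± 0.57 (adjusted p = 0.19). The spleen difference was 1.38 without spleen IKDC array 1, 0.67 without spleen IKDC array 2 and 1.47 in the additive model (adjusted p = 0.0159). The other 2 probe sets of Slamf6 also had LN IKDC as the highest array, at 8.14 and 5.59, with differences from LN CDC of 1.63 ± 0.77 and 1.24 ± 0.77. Plasmacytoid DC markers moved with that array: the 5 listed genes summed to 834 to 10507 in IKDC, with the upper end on LN IKDC, against 625 to 735 in NK and 1079 to 3059 in CDC. Siglech, a defining gene of those cells, read 10.78 on LN IKDC and 5.45 and 6.51 on the spleen IKDC arrays. The part of these cells in the Slamf6 level was not tested, and in such bulk samples a larger share of another cell type and more RNA per cell cannot be told apart.

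Slamf7, whose product CRACC is an activating receptor of NK cells when EAT-2 is present, was below CDC on average in IKDC and NK of both organs, without passing the test. It read 9.15 and 8.23 in spleen IKDC and 8.99 in LN IKDC, and 9.001 and 8.70 in spleen NK and 8.58 in LN NK, against 9.08 and 9.79 in spleen CDC and 10.07 in LN CDC. The NK arrays were all below the CDC arrays, while spleen IKDC array 1 lay above spleen CDC array 1. The difference was -0.74 ± 0.40 between spleen IKDC and CDC (adjusted p = 0.345) and -0.58 ± 0.40 between spleen NK and CDC (adjusted p = 0.444). Between the spleen arrays 1 it was 0.07 for IKDC and -0.07 for NK, and between the spleen arrays 2 it was -1.56 and -1.09.

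Slamf1, the gene of the founding receptor SLAM, stayed close to background. Its brightest probe set read 5.63 and 5.66 in spleen IKDC and 5.49 in LN IKDC, and 6.08 and 5.82 in spleen NK and 6.70 in LN NK, against 5.87 and 5.82 in spleen CDC and 6.83 in LN CDC. The other 2 probe sets were below the filter level on all 9 arrays. The LN CDC and LN NK arrays were the highest, and the difference between LN IKDC and LN CDC was -1.34 ± 0.44 (adjusted p = 0.189).

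Counted together, 3 of the 8 genes rose in spleen IKDC relative to spleen CDC, where 4.73% of the 10916 genes tested did, and 0 fell, where 5.57% did (10.3% were called in either direction). The genes were Sh2d1a, Sh2d2a and Cd84, and the median difference over the 8 genes was 0.97, against 0.04 over all genes. In spleen NK relative to spleen CDC, these genes and Cd48 rose, 4 of 8 where 6.54% of all genes did, and 0 fell, where 6.97% did (13.5% in either direction). The median there was also 0.97, against 0.06 over all genes. Both comparisons use the same CDC arrays. Over the 3 IKDC and 3 CDC arrays of both organs, 5 of the 8 genes were higher without overlap, where 15.8% of all genes were, and Slamf1 was lower without overlap, where 14.5% were. Over the 3 NK and 3 CDC arrays, 6 were higher, where 19.7% of all genes were, and Slamf7 was lower, where 17.2% were. Without spleen IKDC array 2 the difference between spleen IKDC and CDC was 4.92 for Sh2d1a, 4.77 for Sh2d2a and 3.13 for Cd84, with adjusted p-values of 0.00276, 0.0027 and 0.00517.

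**Figure D2:**
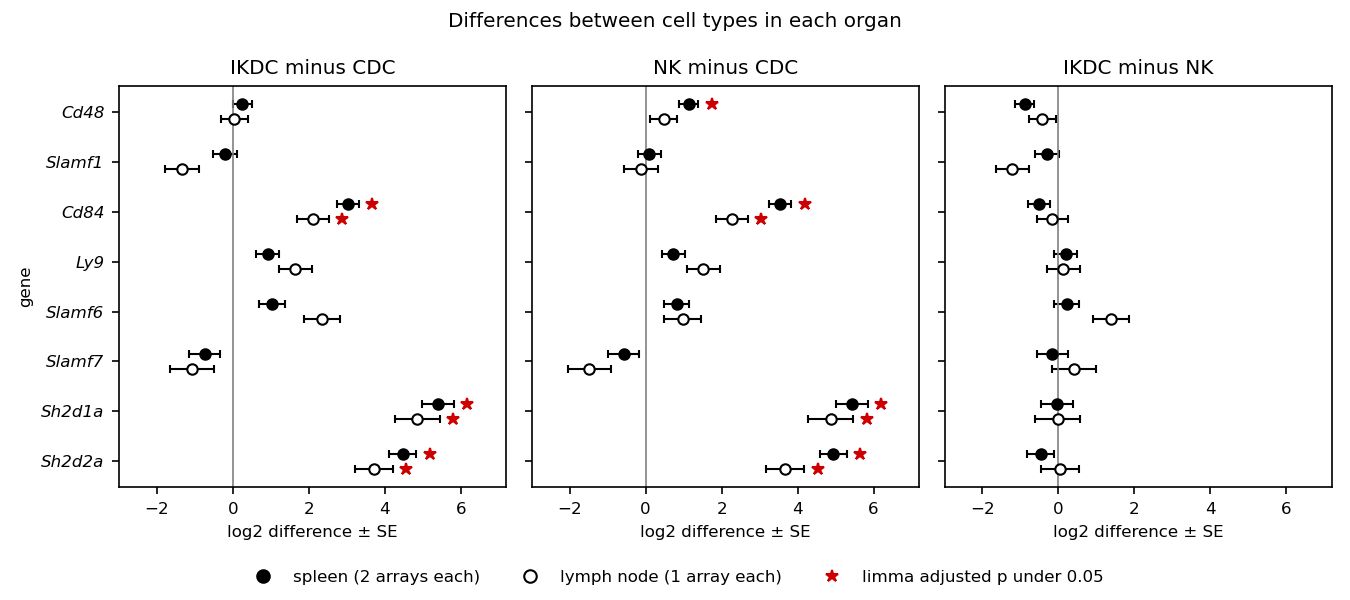
Log2 difference with its standard error (x axis) for 8 genes (y axis), with filled points for spleen, open points for LN and a star where the limma adjusted p was under 0.05. Sh2d1a, Sh2d2a and Cd84 carry stars against CDC in both organs, Cd48 only in NK of the spleen, and none of the 8 genes carries a star between IKDC and NK.

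The same genes separated the LN arrays. Sh2d1a, Sh2d2a and Cd84 rose in LN IKDC relative to LN CDC, by 4.85 ± 0.59, 3.71 ± 0.50 and 2.11 ± 0.41, with adjusted p-values of 0.0184, 0.0199 and 0.0471. With LN CDC at the filter level, Sh2d1a was at least 11.9-fold higher in LN IKDC and at least 12.1-fold higher in LN NK. This was 3 of 8 genes, where 2.06% of all genes rose, and 0 of 8 fell, where 1.84% did (3.9% in either direction). In LN NK relative to LN CDC the same 3 rose by 4.87 ± 0.59, 3.68 ± 0.50 and 2.27 ± 0.41 (adjusted p = 0.00995, 0.0127 and 0.0294), where 2.93% of all genes rose, and 0 of 8 fell, where 3.22% did (6.16% in either direction). With a lone array per LN group, the spread was borrowed from spleen. The Cd84 calls were the least firm, with adjusted p-values of 0.0345 to 0.12 for IKDC and 0.0206 to 0.0754 for NK over 13 alternatives, and the Sh2d2a call in IKDC reached 0.0597 without either spleen CDC array.

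Spleen IKDC were set against spleen NK to ask whether the 2 killer populations differ in these genes. Limma called 0 of the 8 genes, and 0% of all genes, while 600 of the 10916 genes and 1 of the 8, Cd48, had an unadjusted p under 0.05. For Sh2d1a the difference was -0.03 ± 0.42, with a 95% interval of -1.04 to 0.98. For Sh2d2a it was -0.46 ± 0.35 (interval -1.32 to 0.39), and for Cd84 -0.51 ± 0.29 (interval -1.21 to 0.19). The intervals leave room for differences up to those bounds. For Cd48 the difference was -0.89 ± 0.25 (interval -1.49 to -0.28, adjusted p = 0.859), and the LN pair differed by -0.43 ± 0.36. On the 3 IKDC and 3 NK arrays, Cd48, Cd84 and Slamf1 were lower in IKDC without overlap, 3 of 8 where 5.07% of all genes were, and 0 of 8 were higher, where 4.86% were. On the dimmer probe set of Cd84, however, LN IKDC was the highest array, at 7.58 against 5.95 to 6.75 in NK. Slamf1 was close to background, with 5.66 as the highest IKDC reading and 5.82 as the lowest in NK. Its dimmer probe sets overlapped between IKDC and NK.

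In the LN, IKDC and NK differed most in Slamf6 and Slamf1, neither of which passed the test. Slamf6 read 9.99 in LN IKDC and 8.60 in LN NK, a difference of 1.38 ± 0.48, and Slamf1 read 5.49 and 6.70, a difference of -1.21 ± 0.44 (both adjusted p = 1). Limma called 0 of the 8 genes there, where 0.055% of all genes were called, and those 2 genes had an unadjusted p under 0.05, as did 446 of the 10916 genes. The difference between LN and spleen in the contrast of IKDC with NK was 1.17 ± 0.59 for Slamf6 (adjusted p = 1). In Slamf6, spleen arrays 1 gave -0.39 and spleen arrays 2 gave 0.82 between IKDC and NK.

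Lymph node arrays were compared with spleen arrays within each cell type. By Xist and Eif2s3y, spleen arrays 1 were male, and spleen arrays 2 and all LN arrays were female. Mki67, a gene of dividing cells, read 10.97 to 11.91 on spleen arrays 1 and 8.63 to 9.86 on all others. Organ was therefore partly confounded with sex and with the Mki67 level, and their part in these differences was not tested. Limma called 0 of the 8 genes in IKDC, NK or CDC, where 0%, 0% and 0.0275% of all genes were called. An unadjusted p under 0.05 was found for 1, 1 and 2 of the 8 genes, and for 744, 628 and 1386 of all 10916 genes. These were Slamf6 in IKDC, at 9.99 in LN and 8.66 ± 0.50 (SD, n = 2) in spleen, a difference of 1.33 ± 0.41 (adjusted p = 0.536), and Sh2d2a in NK, at 9.06 in LN and 10.44 ± 0.54 in spleen, a difference of -1.38 ± 0.43 (adjusted p = 0.8). In CDC they were Cd84, at 6.30 in LN and 5.18 ± 0.35 in spleen (1.12 ± 0.36, adjusted p = 0.3), and Slamf1, at 6.83 in LN and 5.85 ± 0.04 in spleen (0.98 ± 0.38, adjusted p = 0.372). Tests of whether a contrast between cell types differed between the organs called 0 of the 8 genes, where 0% of all genes were called in each. The smallest adjusted p among the 8 was 0.908, for Cd84 in NK against CDC.

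Other genes of the pathway were followed from a list of 20 partners, of which 17 had a value and were tested. In spleen IKDC relative to spleen CDC, 5 of the 17 rose, where 4.73% of all genes did, and 3 fell, where 5.57% did, with a median of 0.04 that equals that of all genes. Cd2, an adhesion receptor that also binds CD48, rose by 5.97 ± 0.40, at least 37.4-fold, and Prkcq, the kinase PKC-theta that acts downstream of SAP and Fyn in T cells, by 6.38 ± 0.57, at least 37.1-fold. Fyn itself, the kinase that SAP recruits, rose by 2.13 ± 0.24, a 4.39-fold difference (adjusted p = 0.00328). Txk, a Tec family kinase, rose by 4.52 ± 0.74, at least 15.4-fold, and Cblb, a ubiquitin ligase that restrains lymphocyte activation, by 1.27 ± 0.24.

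The partners that fell in spleen IKDC relative to spleen CDC were Slamf8, Ptpn6 and Plcg1. Slamf8, a family member of myeloid cells that lacks the tail motifs for SAP, read 5.87 and 5.40 in spleen IKDC and 5.10 in LN IKDC, against 10.46 and 10.09 in spleen CDC and 11.32 in LN CDC. It was 24.9-fold lower in spleen IKDC (-4.64 ± 0.34, adjusted p = 0.00135), with no overlap between the cell types. Ptpn6, which encodes the inhibitory phosphatase SHP-1, differed by -1.49 ± 0.28 (adjusted p = 0.0211) and Plcg1, a phospholipase, by -1.57 ± 0.36 (adjusted p = 0.0416). In LN the Ptpn6 difference from CDC was 0.75 ± 0.40 in IKDC and 0.09 ± 0.40 in NK, and the LN difference minus the spleen difference was 2.24 ± 0.48 for IKDC (adjusted p = 0.408). Macrophage and monocyte markers, like Slamf8, were highest in CDC. The 5 measured genes summed to 1841 to 6755 in IKDC, 551 to 4948 in NK and 12063 to 21865 in CDC, with 5 of 5 above the filter level on every array. Within IKDC and NK the order differed. The highest IKDC sum was on LN IKDC, where Slamf8 was lowest, and the lowest NK sum on spleen NK array 1, where Slamf8 was highest in NK, 6.21. On the IKDC and NK arrays Slamf8 read 5.10 to 6.21, near the filter level of 5.31, so its order among them decides nothing. The part of the macrophage and monocyte markers in the result was not tested. In spleen NK relative to spleen CDC the same 5 partners rose, where 6.54% of all genes did, and the same 3 fell, where 6.97% did.

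In LN IKDC relative to LN CDC, 5 of the 17 partners rose, where 2.06% of all genes did, and 1 fell, where 1.84% did. In LN NK relative to LN CDC, 5 rose, where 2.93% of all genes did, and 2 fell, where 3.22% did. Cd2, Fyn, Prkcq and Slamf8 were called in the same direction in both. Cd244a, the gene of the CD48 receptor 2B4, is named after its values were seen. It read 10.82 and 11.53 in spleen IKDC and 10.66 in LN IKDC, and 11.01 and 10.97 in spleen NK and 10.997 in LN NK, against 10.10 and 10.49 in spleen CDC and 8.50 in LN CDC. It rose by 2.16 ± 0.43 in LN IKDC and by 2.49 ± 0.43 in LN NK relative to the single LN CDC array (adjusted p = 0.0496 and 0.0252), and differed by 0.88 ± 0.30 between spleen IKDC and CDC (adjusted p = 0.139). Slamf9, also named after its values were seen, fell in LN NK relative to LN CDC by 1.87 on the log2 scale (adjusted p = 0.0486). The other 7 partners, Ptpn11, Inpp5d, Csk, Vav1, Plcg2, Cbl and Crk, were called in none of the 4 comparisons with CDC. Between IKDC and NK, 0 of the 17 partners were called in either organ, where 0% of all genes were called in spleen and 0.055% in LN.

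**Figure D3:**
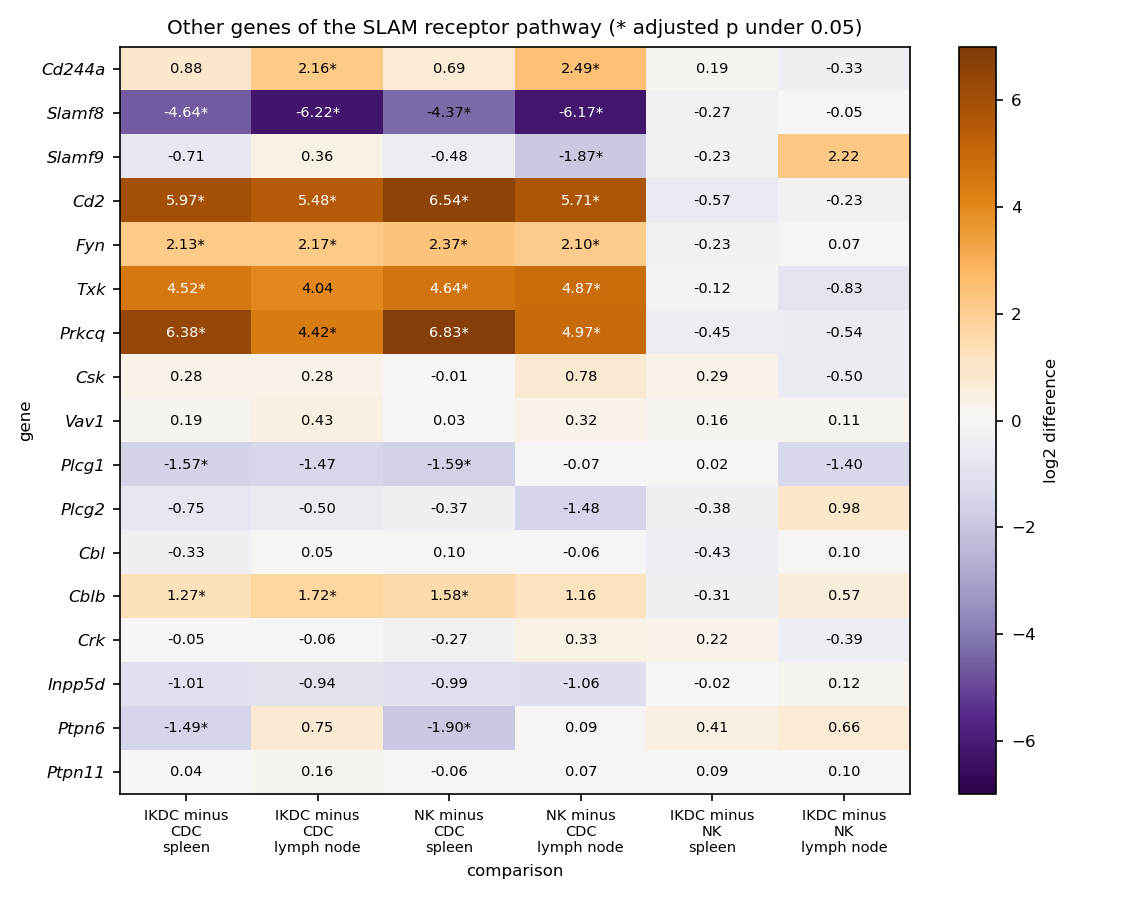
Log2 differences (colour and printed values) of 17 pathway partners (rows) in 6 comparisons (columns), with an asterisk where the limma adjusted p was under 0.05. Cd2, Fyn and Prkcq carry asterisks in all 4 comparisons with CDC as higher and Slamf8 as lower, and the 2 columns of IKDC minus NK carry none.

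The genes whose profiles lay nearest to each of the 8 were found by the root mean square difference of levels centred on each gene's own mean over the 9 arrays. For Sh2d1a, whose own levels had a root mean square of 2.49 around their mean, the nearest were Ablim1, which encodes an actin-binding protein, at 0.24 and Gimap1, a GTPase gene of lymphocytes, at 0.26. For Sh2d2a (own value 2.12) they were Tmsb15a at 0.41 and Pafah2 at 0.42, and for Cd84 (own value 1.43) Ypel1 at 0.28 and Ltk at 0.30. For Slamf6 (own value 0.73) they were Setd4 at 0.28 and Lca5 at 0.29. Setd4 shared with Slamf6 its highest reading on LN IKDC, 8.29, as did Lca5, 6.63. The narrower profiles of Ly9 (own value 0.57), Slamf7 (0.54), Cd48 (0.47) and Slamf1 (0.45) lay nearest to Rcor1 and Oip5os1, Fbxw19 and Pdzd11, Mxd4 and Reep5, and Pxt1 and Catsper2, at 0.11 to 0.21. These distances share the same 9 arrays and describe them, with no test.

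**Figure D4:**
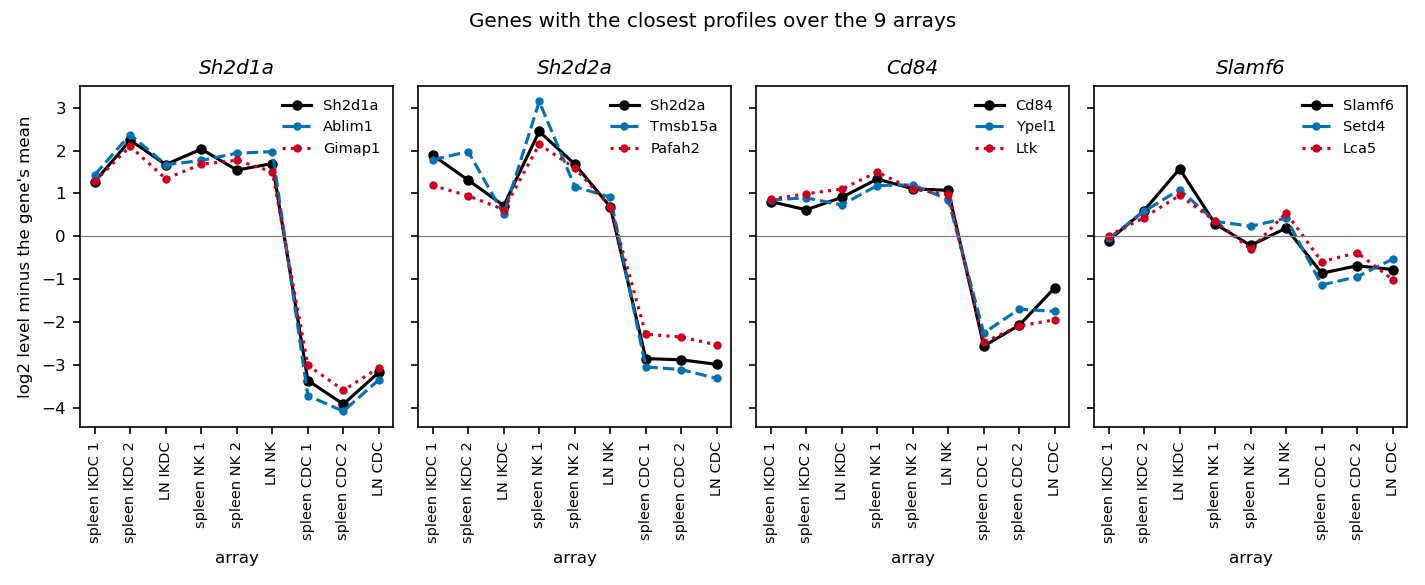
Log2 level minus the gene's own mean (y axis) on the 9 arrays (x axis, IKDC, NK and CDC from left to right) for Sh2d1a, Sh2d2a, Cd84 and Slamf6 in black and the 2 genes nearest to each in colour. The first 3 panels drop at the CDC arrays, and in the Slamf6 panel all 3 genes peak on LN IKDC.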

How the data were processed

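Biotin-labelled cRNA from 6 µg of total RNA was hybridised to Affymetrix arrays, per the labels' protocols. The intensity deposited for each probe set is on a linear scale and had been scaled by the authors, since the mean trimmed at both tails was 150.0 on each array. The sources used here do not name the software. Of 45101 probe sets, 64 controls were left out, 34945 carried a single symbol in the platform annotation, 932 several and 9160 none. An offset of 6.49 (the 20th percentile) was added, and log2 values were quantile normalized. Each gene was represented by its brightest single-symbol probe set, and genes were tested where their mean reached the 40th percentile, 5.31, which left 10916. A fold against a lower mean was taken against that level. limma 3.58.1 in R 4.3.3 fitted 6 groups (lmFit, eBayes with trend) with 3 residual and 3.44 prior degrees of freedom, Benjamini-Hochberg adjustment over all tested genes and a threshold of 0.05. The procedure was tested on simulated data. Nothing in the labels ties replicates to separate animals. By Xist and Eif2s3y, however, spleen arrays 1 came from males and spleen arrays 2 from females, hence from different donors. A p-value reflects just how far these samples spread, a spread that includes any difference between those donors. The number of arrays limits the precision. The members and lists were chosen with earlier results of these data known. All 8 measured members are named, with the partners called in a spleen comparison (at most 8 named) and the 2 genes with the nearest profile to each member. NK, DC, T cell, B cell, plasmacytoid DC, macrophage, platelet and erythroid markers were summed as linear normalized intensity. The B cell list summed to 144 to 1068 in IKDC, 187 to 212 in NK and 270 to 401 in CDC. Alternatives were other scalings, offset, filters, probe set summaries, no trend, a replicate block, an additive model, a fit to spleen only and omission of each spleen array in turn. Figures used matplotlib 3.10.9 in Python 3.11.15.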

Additional observations from a re-analysis of the deposited data

How the results depend on the processing

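Of the 13 differences called among the 8 genes, 9 kept their direction and their call under every alternative of scaling, offset, filter, summary, spread, model and left-out array that was run, and the others were Cd48 between spleen NK and CDC, Cd84 in both LN comparisons with CDC and Sh2d2a between LN IKDC and CDC. The dimmer Cd84 probe set, taken alone, lost all 4 Cd84 calls, with smaller differences in spleen, and in LN a larger one for IKDC (2.80 against 2.11) and larger standard errors (0.74 against 0.41). Nothing that was called changed sign, and 17 values that had not passed the test did. Between spleen IKDC and NK these were Slamf6 at -0.14 to 0.56 with 1 array left out (-0.04 without NK array 2, -0.14 without IKDC array 2) and -0.0891 on its dimmest probe set, Slamf7 at 0.0299 in the additive model and -0.62 to 0.30 with 1 array left out (0.30 without IKDC array 2), Ly9 at -0.0696 to 0.44 (-0.0696 without NK array 2), and Sh2d1a at -0.51 to 0.45 (0.21 without NK array 1 and 0.45 without IKDC array 1). Slamf1 between spleen NK and CDC was -0.0291 to 0.23 (-0.0291 without NK array 1). In LN, Cd48 between IKDC and CDC was -0.0743 with values as deposited and -0.14 with the 75th percentile shift. Between LN IKDC and NK, Sh2d2a was -0.0301 with that shift, Cd84 was 0.33 with the mean of probe sets and 0.83 on its dimmer probe set, and Slamf1 was 0.57 and 0.012 on its dimmer probe sets. Cd84 between LN and spleen CDC was -0.13 on its dimmer probe set.

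The replicate number was used as a block for the spleen comparisons only, since the LN arrays carry no number. Arrays of the same number deviated alike from their group means, with r across genes of 0.41 to 0.53, though no label states that equal numbers mark a pair. By Xist and Eif2s3y the number also separates male from female arrays in each cell type, and Mki67 was higher on the male arrays. The block therefore carries sex and the Mki67 level, and these cannot be told apart from a shared sort. The fit without a block leaves that common difference in the spread. The block added Ly9 between spleen IKDC and CDC (adjusted p = 0.0415) to the members called, and changed no other member call. It raised the count over all genes to 1902 from 1124 between spleen IKDC and CDC, and to 2301 from 1475 between spleen NK and CDC. The additive model called 1894 and 2404 genes there and 5 members between IKDC and CDC, with Slamf6 and Ly9 added.

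Leaving out each spleen array in turn gave 3 to 4 members and 360 to 1397 genes between spleen IKDC and CDC, with the fewest genes without either CDC array (455 and 360). It gave 3 to 4 members and 515 to 1915 genes between spleen NK and CDC. In LN it gave 1 to 4 members and 123 to 727 genes between IKDC and CDC, where Sh2d1a was the member left without either spleen CDC array. It gave 2 to 3 members and 324 to 1077 genes between NK and CDC, and 0 members and 0 to 33 genes between IKDC and NK. For LN against spleen it gave 0 members in each cell type, with 0 to 14 genes in IKDC and 0 to 19 in CDC. Over all genes, no filter gave 258 genes between LN IKDC and CDC against 426, and 0 between LN IKDC and NK against 6, as did values as deposited, the 75th percentile shift and no trend. Between LN and spleen, IKDC had 31 genes with the offset of 16, 22 with the 60th percentile filter and 18 with the mean of probe sets, against 0. NK had 1 without a filter and 3 with the 60th percentile filter, against 0. CDC had 5 with the 75th percentile shift, 1 with the offset of 16, 0 without a filter or without trend, 10 with the 60th percentile filter and 8 with the mean of probe sets, against 3. The cause of these changes was not tested. The 75th percentile shift moved the median of all genes between LN and spleen NK to -0.15. Low signal limits Slamf1 and the CDC levels of Sh2d1a, Sh2d2a and Cd84.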
